A study of Homo sapiens with 6 samples.

Results

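The genes described here are 56 that build, load, fire and protect the DNA replication fork, taken by symbol from the 16407 genes of the expression table. All 56 were found there, and all 56 passed the filter on low counts, so none is missing from the counts below. The cells were C666-1, a human nasopharyngeal carcinoma line. They spent 24 h either in medium from which serine and glycine had been removed, called SG here after the labels, or in complete medium, called CM, which held 0.4 mM serine and 0.4 mM glycine. Both media were built on MEM essential medium lacking the non-essential amino acids, with 4.5 g/L glucose, 10% dialyzed fetal bovine serum and antibiotics. Each medium had 3 libraries, and the labels do not say whether these came from separate cultures, so a p-value here reflects variation among these libraries alone and some of that may be technical. The comparison asks how transcripts of the replication machinery stood after 24 h without both amino acids.

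In G1, the origin recognition complex, CDC6 and CDT1 load the ring-shaped MCM2 to MCM7 helicase onto DNA, a step called licensing, and geminin blocks CDT1 afterwards. At the start of S phase, the kinase CDC7 with DBF4 turns the loaded ring into the active CMG helicase by bringing in CDC45 and the GINS complex. Polymerase alpha with primase then starts each new strand, polymerases delta and epsilon extend it on the PCNA clamp, and FEN1, DNA2 and LIG1 join the short pieces of the lagging strand. Serine and glycine feed the one-carbon units and the glycine carbon from which cells make thymidylate and purines, the substrates of this machinery.

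The SG libraries held 16676318 to 17030355 estimated counts and the CM libraries 16612196 to 16902750. The 56 genes together took 0.595 to 0.631% of the counts in SG libraries and 0.591 to 0.635% in CM libraries. Within a library a gene of the set had from 144 counts (POLE2) to 9959 counts (MCM7). SG1 stood apart from the other SG libraries: by a chi-square statistic per gene, it differed from SG2 and SG3 by 16.2 and 18.3, from CM1 by 10.0 and from CM2 and CM3 by 32.5 and 25.1. CM1 differed from CM3 by 8.68 and from CM2 by 12.97. Of 7 epithelial markers, KRT8, KRT18 and KRT19 were abundant and EPCAM stood at 6.18 to 7.65 CPM, while CDH1 was at most 0.466 CPM and KRT5 at most 0.240 CPM in every library. TP63 stood at 4.94 to 7.59 CPM and was not called (log2 fold change -0.30, adjusted p = 0.268 by edgeR). KRT19 was called lower (log2 fold change -0.48, adjusted p = 0.0217 by edgeR), and KRT18 had an adjusted p of 0.156, or 0.0342 with the replicate block. The 7 epithelial markers summed to 1092 to 1211 CPM in SG libraries and 1208 to 1354 CPM in CM libraries. Of 7 leukocyte markers 4 have a row in the table. They summed to 36.7 to 40.3 CPM in SG libraries and 50.3 to 60.2 CPM in CM libraries. Nearly all of it was CD68, which was itself called lower (log2 fold change -0.54), with PTPRC at 0 to 0.119 CPM. CD14 went the other way, at 0.816 to 1.43 CPM in SG and 0.18 to 0.600 CPM in CM. Its log2 fold change was 1.39 (adjusted p = 0.0764 by edgeR, or 0.0404 with the replicate block). Of 6 stromal markers 5 have a row, and they summed to 14.6 to 20.7 CPM in SG libraries and 19.2 to 19.8 CPM in CM libraries. PDGFRB had a log2 fold change of -0.69 (adjusted p = 0.0840 by edgeR, or 0.0454 with the replicate block). By edgeR the log2 fold changes of DCN and PECAM1 were -0.42 and -0.64, that of COL1A1 was 0.19, and none was called. The part of all these markers in the results below was not tested.

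At the fork, 6 genes fell without serine and glycine in the main fit. No transcript of the licensing step (MCM2 to MCM7, ORC1 to ORC6, CDC6, CDT1 and GMNN) was called there. With 6.95% of all genes called, a count of 0 among so few genes is near the share of the whole table. MCM5 was called higher with the replicate block, and MCM5 and CDT1 without both libraries numbered 1. The 6 genes were CDC45 of the CMG helicase, POLA1 and POLA2 of polymerase alpha, POLD2 of polymerase delta, RFC5 of the clamp loader and LIG1, the ligase of the lagging strand. They were lower by 19.4 to 34.9% (POLA1 and CDC45). Of the 56 genes, 6 were lower (10.7%) and 0 higher at a Benjamini-Hochberg adjusted p under 0.05 by edgeR's quasi-likelihood test, against 4.22% of all 12548 genes tested called lower, 2.73% called higher and 6.95% called in either direction. At an unadjusted p under 0.05, 12 of the 56 were lower and 2 higher, against 14.4% and 12.9% of all genes. DESeq2 and limma voom likewise called 0 of the 56 higher, but other fits did not. With the replicate block, 2 were higher (MCM5 and DNA2), against 11.1% of all genes. Without both libraries numbered 1, edgeR called 20 of the 56, some of them higher, against 15.5% of all genes lower and 13.5% higher. The median log2 fold change of the 56 was -0.0086, and that of all genes tested was -0.00070. All 3 SG libraries lay below all 3 CM libraries for 13 of the 56 genes and above them for 5, against 16.4% and 16.1% of all genes tested. In RNA from whole cultures, fewer cells in S phase and less RNA per cell cannot be told apart.

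**Figure D1:**
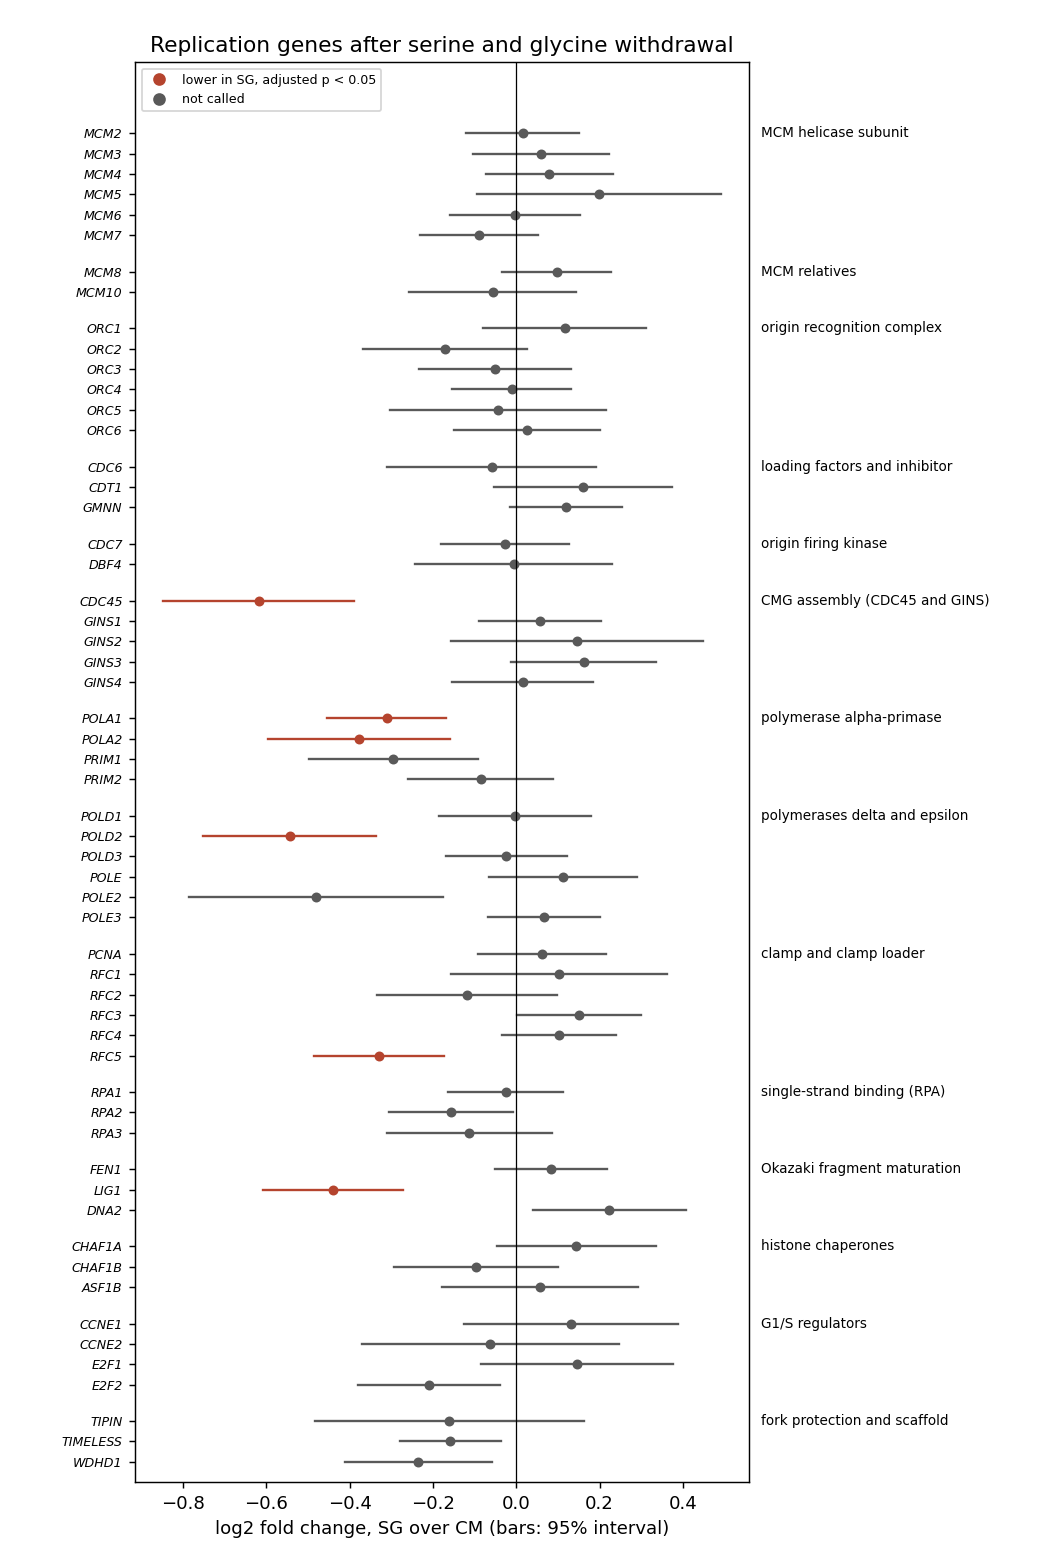
Log2 fold change, SG over CM, of each of the 56 genes, grouped by role down the page, with points for the estimate and bars for its 95% interval. The 6 red genes, from CDC45 at -0.62 to POLA1 at -0.31, passed the test, while MCM2 to MCM7 and the ORC subunits lie around 0.

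The MCM2 to MCM7 helicase subunits did not pass the test in either direction. MCM2 had 331, 304 and 316 CPM (counts scaled to library size) in the SG libraries, against 322, 313 and 306 CPM in the CM libraries. MCM6 had 243, 221 and 211 CPM in SG, against 237, 220 and 218 CPM in CM, with a log2 fold change of -0.0032 (SE 0.070, adjusted p = 0.982). For both subunits the groups overlapped. MCM7, the most abundant subunit, had 523, 553 and 563 CPM in SG libraries, against 595, 570 and 580 CPM in CM libraries. Its SG libraries all lay below its CM libraries, but the log2 fold change of -0.09 (SE 0.064) had an adjusted p of 0.386. MCM5 had 147, 121 and 113 CPM in SG libraries, against 132, 98.0 and 102 CPM in CM libraries. In both media library 1 was its highest, and the groups overlapped. Its log2 fold change was 0.20 (SE 0.129, adjusted p = 0.353), and 0.0211 was the adjusted p with the replicate number as a block. Over the 6 subunits, the 95% intervals ran from a ratio of 0.851 (MCM7) to 1.41 (MCM5), SG over CM. MCM8, a relative that acts in recombination, and MCM10, which helps to activate the helicase, were not called either. MCM8 had 103, 96.2 and 96.9 CPM in SG, against 92.1, 91.5 and 93.7 CPM in CM, without overlap (log2 fold change 0.10, adjusted p = 0.313).

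The origin recognition complex, which marks the sites where the helicase is loaded, gave 0 calls among ORC1 to ORC6 by edgeR, against 6.95% of all genes. At an unadjusted p under 0.05 there were 0, against 14.4% of all genes lower and 12.9% higher. ORC2 had the smallest p of the 6, with 34.8, 38.6 and 40.1 CPM in SG libraries, against 38.4, 45.9 and 43.4 CPM in CM libraries. The groups overlapped, and the log2 fold change was -0.17 (SE 0.089, adjusted p = 0.241). The other subunits had log2 fold changes between -0.05 (ORC3) and 0.12 (ORC1). Among the loading factors, CDT1 had 72.4, 79.6 and 80.4 CPM in SG, against 80.2, 61.6 and 66.1 CPM in CM. CM1 lay within the range of the SG libraries, and the log2 fold change was 0.16 (SE 0.096, adjusted p = 0.310). GMNN, which encodes geminin, had 91.4, 91.9 and 93.8 CPM in SG libraries, against 81.3, 89.2 and 84.3 CPM in CM libraries. Its groups did not overlap (log2 fold change 0.12, SE 0.061, adjusted p = 0.229). CDC6, the ATPase that loads MCM rings with ORC, averaged 238 ± 39.2 CPM in SG and 248 ± 21.9 CPM in CM (SD, n = 3 each), with SG1 the highest of all 6 libraries.

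CDC45 was the member with the greatest fall, while the kinase that recruits it and its GINS partners were not called. CDC45 (NCBI Gene 8318, chromosome 22, 19479466 to 19520612 on GRCh38) had 28.5, 31.0 and 27.2 CPM in SG libraries, against 38.7, 50.5 and 43.9 CPM in CM libraries. The groups were well apart, and CM1 was the lowest of the CM libraries. CDC45 averaged 28.9 ± 1.93 CPM in SG and 44.4 ± 5.93 CPM in CM (SD, n = 3 each), a log2 fold change of -0.62 (SE 0.103, adjusted p = 0.0217 by edgeR). The GINS subunits, which hold CDC45 against the MCM ring, had log2 fold changes of 0.06 (GINS1), 0.15 (GINS2), 0.16 (GINS3) and 0.02 (GINS4). GINS3 had 37.2, 33.0 and 37.9 CPM in SG libraries, against 32.9, 31.6 and 32.1 CPM in CM libraries, without overlap (adjusted p = 0.210). CDC7, the kinase, had 55.5, 51.7 and 50.4 CPM in SG, against 54.7, 54.6 and 51.2 CPM in CM. DBF4, its activating subunit, had 40.7, 50.5 and 53.5 CPM in SG, against 44.1, 51.7 and 49.5 CPM in CM. Both overlapped between the media, with adjusted p of 0.837 (CDC7) and 0.977 (DBF4).

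Polymerase alpha-primase makes the RNA-DNA primer that starts every new strand, and both of its polymerase subunits fell. POLA1, the catalytic subunit (NCBI Gene 5422, chromosome X, 24693918 to 24996986), had 134, 124 and 119 CPM in SG libraries, against 154, 162 and 152 CPM in CM libraries. The groups did not overlap, and the log2 fold change was -0.31 (SE 0.064, adjusted p = 0.0265). POLA2, the accessory subunit (NCBI Gene 23649, chromosome 11, 65261962 to 65305985), had 47.5, 38.8 and 36.7 CPM in SG libraries, against 53.9, 55.4 and 50.5 CPM in CM libraries. SG1 lay nearest to the CM libraries, and the log2 fold change was -0.38 (SE 0.098, adjusted p = 0.0474). POLA2 missed the threshold when libraries were scaled by their totals (adjusted p = 0.0694) and without CM1 (0.0723). GENCODE 29 places 2012 exonic bases of another protein-coding gene on the same strand within POLA2, and the reads that this gene shares cannot be told apart. PRIM1, the catalytic primase subunit, had 36.5, 32.9 and 29.4 CPM in SG, against 39.5, 43.1 and 38.7 CPM in CM. Its groups did not overlap, with a log2 fold change of -0.30 and an adjusted p of 0.0758 (SE 0.091), which became 0.0173 with the replicate block. PRIM2, the large primase subunit, averaged 39.2 ± 2.83 CPM in SG and 41.6 ± 1.82 CPM in CM (SD, n = 3 each), and its libraries overlapped (adjusted p = 0.510).

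**Figure D2:**
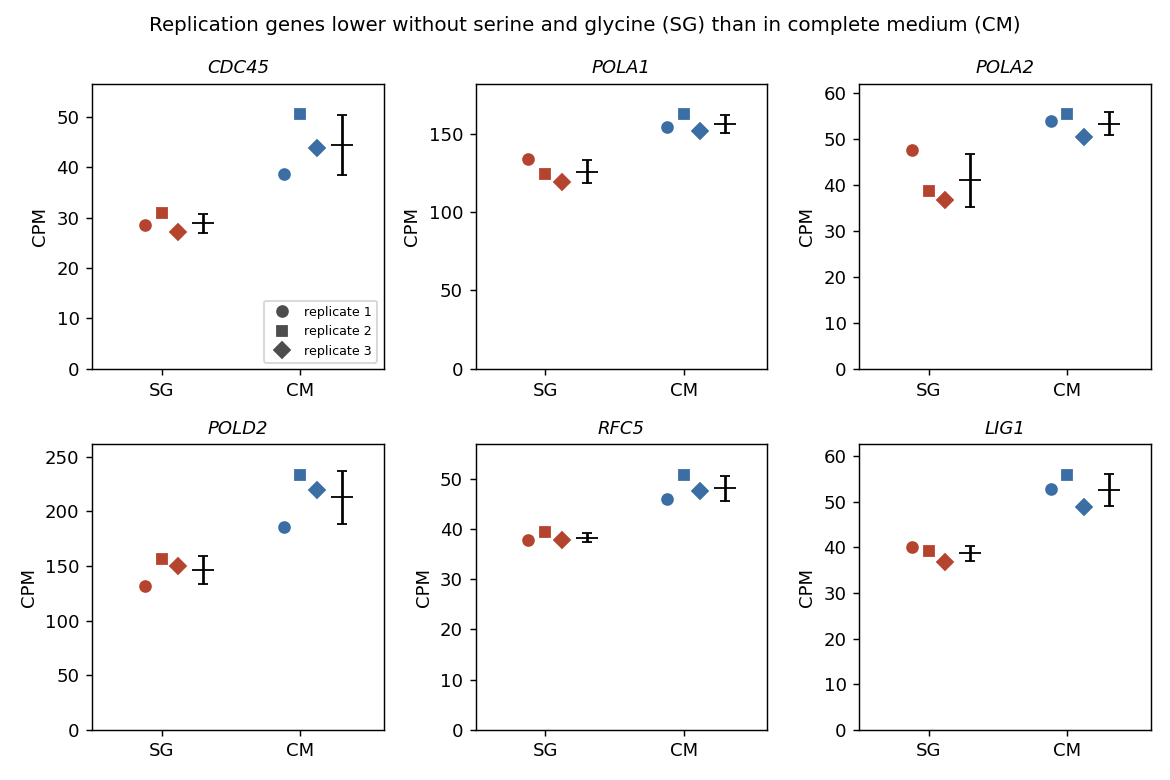
CPM of the 6 genes that passed the test, by library, with SG on the left and CM on the right of each panel, the marker shape giving the replicate number and the black bars mean ± SD of 3 libraries. In all 6 panels the highest SG library lies below the lowest CM library, with the gap smallest for POLA2, between 47.5 and 50.5 CPM.

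Among the polymerases that copy the bulk of the genome, an accessory subunit of each complex was the lowest in SG relative to CM. POLD2, the subunit that joins the catalytic core of polymerase delta to its other parts (NCBI Gene 5425, chromosome 7, 44114680 to 44124325), had 132, 157 and 150.0 CPM in SG libraries, against 186, 233 and 219 CPM in CM libraries. The groups did not overlap, with library 1 the lowest of each medium. The log2 fold change was -0.54 (SE 0.093, adjusted p = 0.0217). POLD1, the catalytic subunit, had 51.3, 57.4 and 61.3 CPM in SG, against 59.4, 52.8 and 58.0 CPM in CM, fully overlapping (adjusted p = 0.988). POLD3 had a log2 fold change of -0.02 (adjusted p = 0.852). POLE2, the second subunit of polymerase epsilon, was the rarest transcript of the set by counts, with 8.39, 10.6 and 9.36 CPM in SG, against 11.2, 14.2 and 14.2 CPM in CM. Its groups did not overlap, and the log2 fold change was -0.48 (SE 0.137, adjusted p = 0.0598). The adjusted p of POLE2 was 0.00949 with the replicate block and 0.0444 by DESeq2. POLE, the catalytic subunit, had 155, 140.3 and 152 CPM in SG, against 154, 126 and 134 CPM in CM, and overlapped (log2 fold change 0.11, adjusted p = 0.395). POLE was called higher without both libraries numbered 1 (adjusted p = 0.0360 by edgeR), against 13.5% of all genes. POLE3, a histone-fold subunit, had a log2 fold change of 0.07 (adjusted p = 0.515).

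PCNA, the ring that holds polymerases on DNA, was the most abundant transcript of the set per length and was not called in the main fit. PCNA averaged 309 ± 8.91 CPM in SG and 296 ± 22.2 CPM in CM (SD, n = 3 each; adjusted p = 0.596). Of the 5 subunits of the clamp loader, RFC5 fell. RFC5 (NCBI Gene 5985, chromosome 12, 118016703 to 118041448) had 37.8, 39.4 and 37.8 CPM in SG libraries, against 46.0, 50.8 and 47.6 CPM in CM libraries. The SG values lay close together and well below CM, and the log2 fold change was -0.33 (SE 0.070, adjusted p = 0.0290). RFC3 had 84.4, 76.7 and 76.0 CPM in SG, against 74.0, 71.0 and 68.6 CPM in CM. Its groups did not overlap in the other direction (log2 fold change 0.15, SE 0.067, adjusted p = 0.179). RFC4 had 120.3, 132 and 129.9 CPM in SG, against 122, 114 and 119.8 CPM in CM, with CM1 above SG1 (log2 fold change 0.10, adjusted p = 0.305). PCNA and RFC4 were called higher without both libraries numbered 1 (adjusted p = 0.0335 and 0.0339 by edgeR), against 13.5% of all genes. RFC1, the large subunit, and RFC2 had log2 fold changes of 0.10 and -0.12, with adjusted p of 0.601 and 0.461, and were highest in the libraries numbered 1.

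RPA coats the single strands that the helicase exposes, and none of its 3 genes was called in the main fit. At an unadjusted p under 0.05, 1 of them was lower, against 14.4% of all genes. RPA3 was called lower without both libraries numbered 1 (adjusted p = 0.0317 by edgeR), against 15.5% of all genes. RPA2 had 80.1, 82.3 and 77.2 CPM in SG libraries, against 86.5, 95.7 and 84.8 CPM in CM libraries. The groups did not overlap, with a log2 fold change of -0.16 (SE 0.067, adjusted p = 0.167). Of the genes that finish lagging-strand pieces, LIG1 fell. LIG1, which seals them (NCBI Gene 3978, chromosome 19, 48115445 to 48170344), had 40.0, 39.3 and 36.9 CPM in SG libraries, against 52.8, 55.9 and 49.0 CPM in CM libraries. Its groups were well apart, and the log2 fold change was -0.44 (SE 0.075, adjusted p = 0.0217). Antisense genes share 179 exonic bases with LIG1 and 160 with RFC5, and WSB2 shares 186 with RFC5 on the opposite strand, and with the strand setting of the counting not stated such reads cannot be told apart. DNA2, a nuclease and helicase that trims long flaps, had 27.3, 29.2 and 26.7 CPM in SG, against 25.0, 24.0 and 22.3 CPM in CM. All SG libraries were higher, with a log2 fold change of 0.22 (SE 0.083), the largest positive value of the 56, and an adjusted p of 0.118, or 0.0498 with the replicate block. FEN1, the flap nuclease, averaged 189.8 ± 6.90 CPM in SG and 179 ± 7.93 CPM in CM (SD, n = 3 each; adjusted p = 0.400).

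The 3 fork protection genes had negative log2 fold changes, and none passed the test over all genes in the main fit. At an unadjusted p under 0.05, 2 of them were lower, against 14.4% of all genes. With the replicate block, 2 were called lower, against 13.2% of all genes. TIMELESS, which couples helicase to polymerase, had 188, 183 and 182 CPM in SG libraries, against 207, 208 and 202 CPM in CM libraries. The groups did not overlap and replicates were tight, with a log2 fold change of -0.16 and an adjusted p of 0.0968 (SE 0.054), which became 0.0296 with the replicate block. WDHD1, the scaffold that tethers polymerase alpha to the helicase, had 59.3, 58.8 and 56.7 CPM in SG, against 63.3, 76.4 and 66.1 CPM in CM. It did not overlap either (log2 fold change -0.24, SE 0.079, adjusted p = 0.0932, and 0.0292 with the block). TIPIN, the partner of TIMELESS, had 42.0, 30.3 and 27.5 CPM in SG, against 38.9, 38.5 and 34.2 CPM in CM, with SG1 the highest of all (adjusted p = 0.504). TIPIN was called lower by edgeR without SG1, against 7.74% of all genes. All 3 genes were called lower without both libraries numbered 1, against 15.5% of all genes. The histone chaperones that reassemble nucleosomes behind the fork, CHAF1A, CHAF1B and ASF1B, were not called in the main fit. ASF1B was called higher without both libraries numbered 1 (adjusted p = 0.0257 by edgeR), against 13.5% of all genes. CHAF1A had 139, 116 and 132 CPM in SG, against 128, 107 and 115 CPM in CM, overlapping (log2 fold change 0.14, adjusted p = 0.305).

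The G1/S regulators that drive transcription of many of these genes were not called in the main fit, which called 6.95% of all genes. E2F1, an activator, had 36.9, 36.5 and 33.4 CPM in SG libraries, against 37.2, 31.0 and 28.2 CPM in CM libraries. CM1 was its highest library, and the log2 fold change was 0.15 (SE 0.104, adjusted p = 0.390). E2F1 was called higher without both libraries numbered 1 (adjusted p = 0.0426 by edgeR), against 13.5% of all genes. E2F2, a second activator, had 30.0, 29.6 and 31.8 CPM in SG, against 36.3, 36.4 and 33.0 CPM in CM. Its groups did not overlap, with a log2 fold change of -0.21 (SE 0.076, adjusted p = 0.113). The E-type cyclins, which activate CDK2 for S-phase entry, had log2 fold changes of 0.13 (CCNE1, adjusted p = 0.493) and -0.06 (CCNE2, adjusted p = 0.810).

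**Figure D3:**
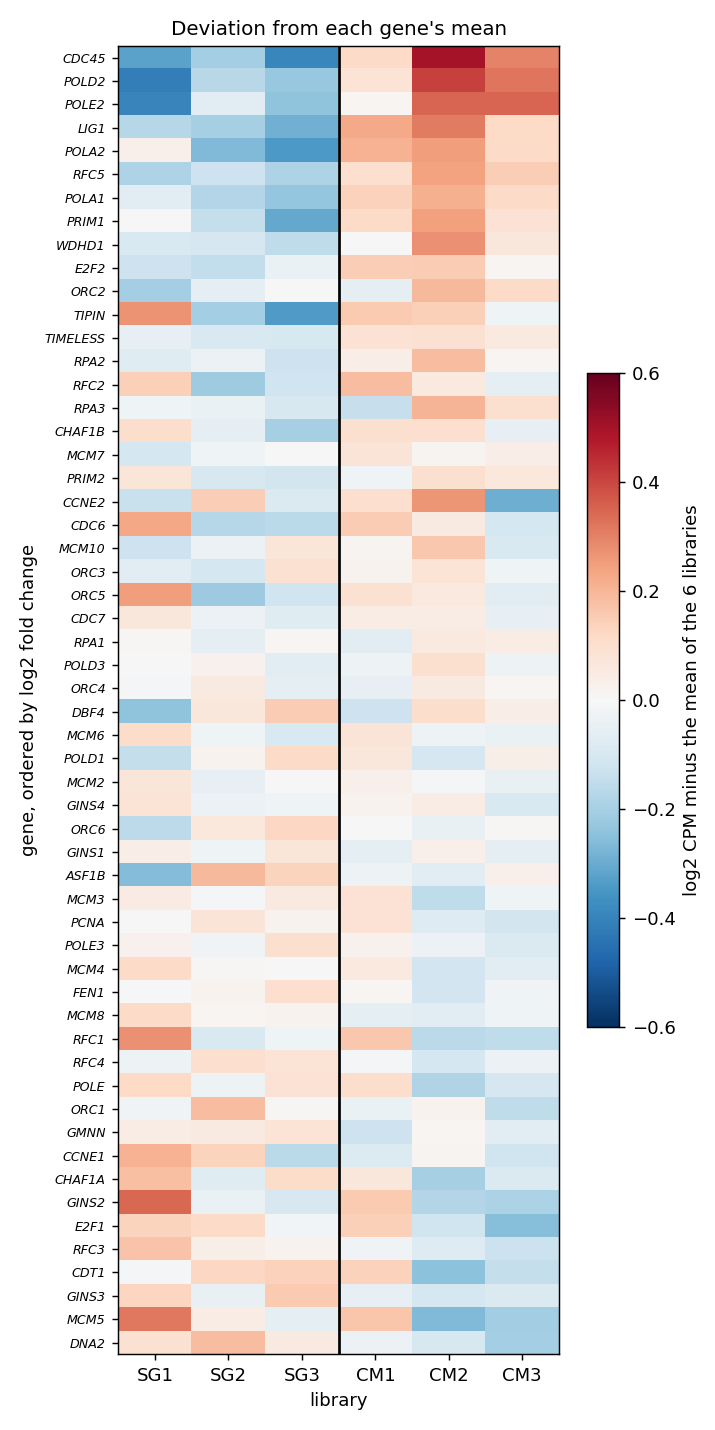
Log2 CPM of each of the 56 genes minus its mean over the 6 libraries, SG libraries left of the black line and CM libraries right of it, with genes ordered from the lowest to the highest log2 fold change. The top rows, from CDC45 to POLA1, are blue in SG and red in CM in nearly every library, and several genes in the middle and bottom rows, such as GINS2 and MCM5, are highest in SG1 and high in CM1.

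Of the 50 genes not called, 49 had a 95% interval within 1.5-fold in either direction and 23 within 1.2-fold. POLE2 was the exception at 1.5-fold, with an interval from 0.581 to 0.885, SG over CM. These bounds say what size of difference the 3 libraries a group leave room for, not that the transcripts were equal.

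The ratio of transcripts within a library does not depend on library scaling, and it was set out for genes of the same step, chosen after their values were seen and so without a test. CDC45 over GINS1 in TPM (a level corrected for transcript length) was 1.00, 1.14 and 0.931 in SG libraries, against 1.44, 1.78 and 1.63 in CM libraries. POLD2 over POLD1 was 5.97, 6.33 and 5.69 in SG, against 7.27, 10.3 and 8.79 in CM. LIG1 over FEN1 was 0.132, 0.128 and 0.114 in SG, against 0.174, 0.201 and 0.165 in CM. The SG and CM libraries did not overlap for these 3 ratios, whose partners were picked among genes that were not called, so the lower ratios in SG restate that choice. RFC5 over RFC1 was 0.436, 0.583 and 0.550 in SG, against 0.5995, 0.832 and 0.748 in CM. POLA1 over PRIM2 was 1.24, 1.28 and 1.25 in SG, against 1.52, 1.48 and 1.42 in CM. POLE2 over POLE overlapped, with 0.310, 0.471 and 0.327 in SG, against 0.457, 0.683 and 0.566 in CM.

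**Figure D4:**
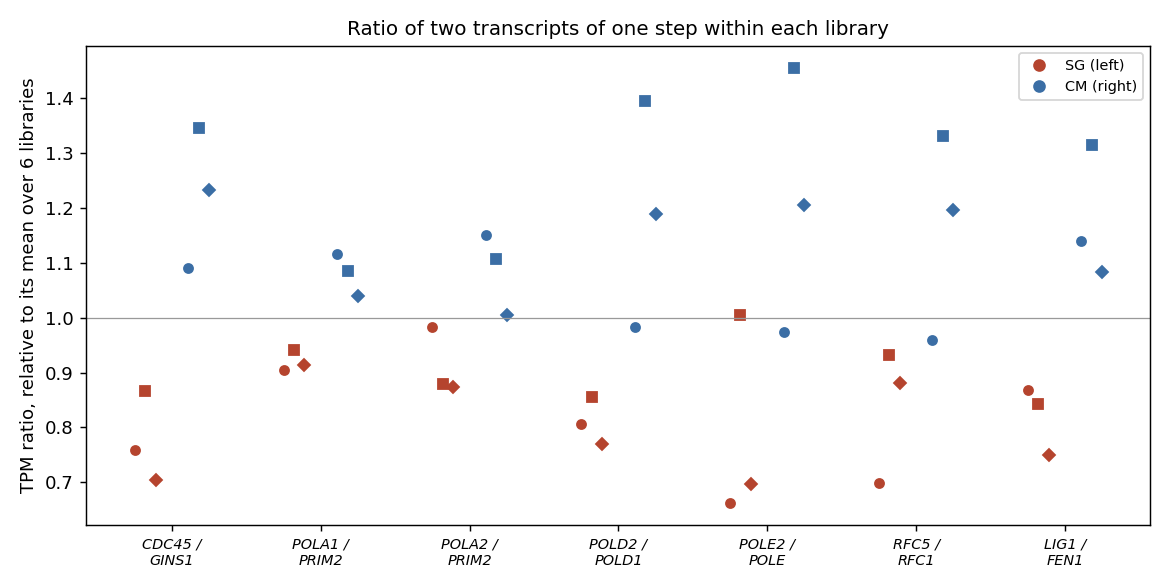
TPM ratio of a gene to another gene of the same replication step in each library, divided by the mean of that ratio over the 6 libraries, with SG libraries left and CM libraries right of each position and marker shapes for replicates 1 (circle), 2 (square) and 3 (diamond). The SG libraries lie below the CM libraries for every ratio but POLE2 over POLE, where the highest SG value, 0.471, exceeds the lowest CM value, 0.457.

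The set covered a wide range of levels per length. By mean TPM over the 3 libraries of a medium, PCNA stood highest, at 607 TPM in SG and 560.2 TPM in CM, followed by MCM7 at 489.95 TPM in SG and 503 TPM in CM. MCM7 lay above the other ring subunits, which ranged from 88.2 TPM in SG and 74.1 TPM in CM (MCM5) to 283 TPM in SG and 263 TPM in CM (MCM3). Within polymerase delta, POLD2 stood at 211 TPM in SG and 297 TPM in CM, well above POLD1 at 35.2 TPM in SG and 34.1 TPM in CM. Within ORC, ORC6 was the most abundant, with 99.0 TPM in SG and 93.1 TPM in CM, and ORC1 the least, with 20.1 TPM in SG and 17.97 TPM in CM. DNA2, MCM10 and E2F2 were the rarest of the set per length, with 13.9, 13.97 and 13.6 TPM in SG, against 11.4, 14.02 and 15.4 TPM in CM.

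**Figure D5:**
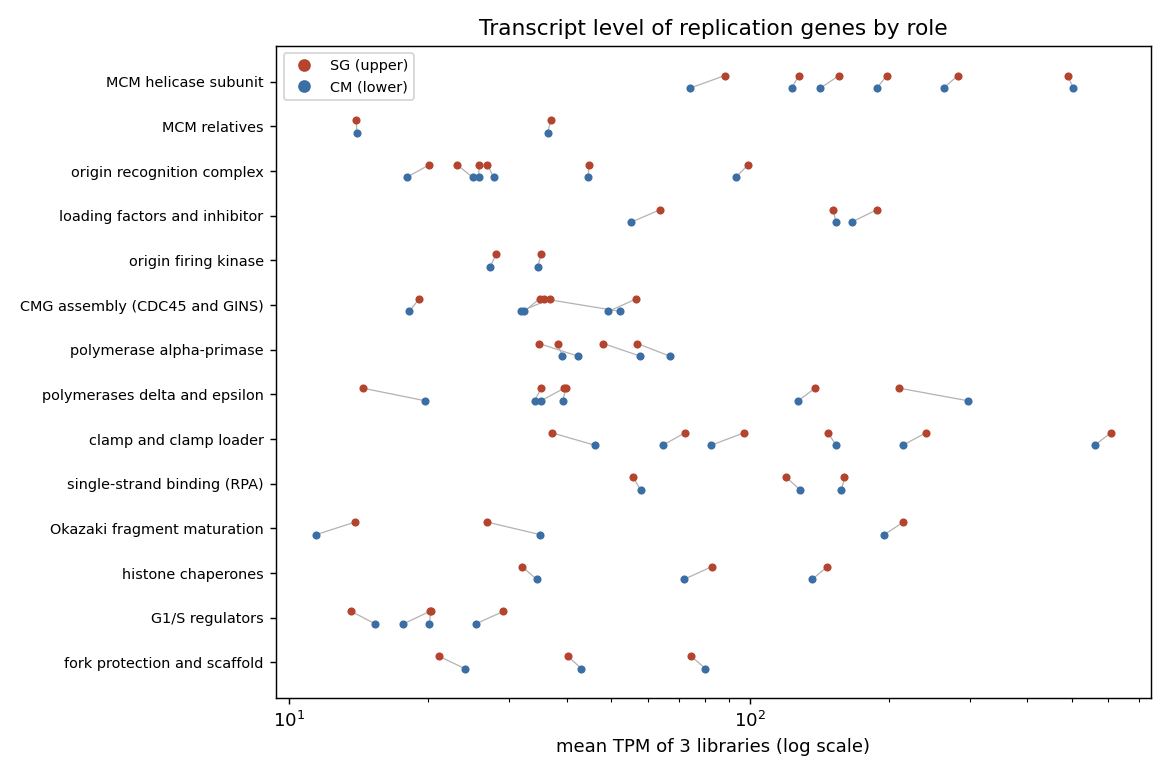
Mean TPM of 3 libraries for each of the 56 genes on a log axis, by role, with SG above CM in each row and a grey line joining the points of a gene. By the mean of all 6 libraries, levels run from DNA2, at 13.9 TPM in SG and 11.4 TPM in CM, to PCNA, at 607 TPM in SG and 560.2 TPM in CM. In SG alone, E2F2 is the lowest, at 13.6 TPM.

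Promoters were read for the motif of E2F factors, which link the cell cycle to transcription of replication genes, in the genes that fell and in those that were not called. RefSeq promoters on GRCh38.p14, 250 bases before to 50 after the start site, were at hand for 48 of the 56 genes. Only 1 start site per gene was searched, which for PRIM2, POLD1 and TIPIN lay inside the gene's span. The letters searched were TTTCCCGC, TTTCGCGC, TTTGCCGC and TTTGGCGC on both strands. At least 1 match stood in 21 of the 48 promoters (43.8%), against 5.17% of the 10294 promoters of tested genes and 3.21% of all 35116 promoters. Among the genes called lower, 3 of 6 had a match (POLA1, POLA2 and LIG1), and among those not called 18 of 42 (42.9%). CCAAT, the letters bound by NF-Y, stood on either strand in 26 of the 48 (54.2%), against 36.0% of promoters of tested genes. A match describes the letters and not a bound site. The promoters of the 3 matched genes that fell are printed below with those of MCM2 and MCM6, whose transcripts stayed close to a fold of 1, 5′ to 3′ on the gene's strand, with the E2F letters in capitals.
POLA1 (chrX:24693668-24693967, plus strand): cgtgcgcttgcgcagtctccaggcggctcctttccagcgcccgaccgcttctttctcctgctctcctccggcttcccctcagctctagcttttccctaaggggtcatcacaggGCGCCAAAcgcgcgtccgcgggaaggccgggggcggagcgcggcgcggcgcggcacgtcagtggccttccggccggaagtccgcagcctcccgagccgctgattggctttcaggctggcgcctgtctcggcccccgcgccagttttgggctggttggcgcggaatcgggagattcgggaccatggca
POLA2 (chr11:65261712-65262011, plus strand): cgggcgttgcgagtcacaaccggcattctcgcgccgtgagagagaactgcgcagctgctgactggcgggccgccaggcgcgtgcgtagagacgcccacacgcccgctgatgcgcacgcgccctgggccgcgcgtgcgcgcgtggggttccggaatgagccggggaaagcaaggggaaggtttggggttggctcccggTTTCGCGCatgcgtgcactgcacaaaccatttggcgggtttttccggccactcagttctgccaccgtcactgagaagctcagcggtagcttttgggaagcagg
LIG1 (chr19:48170295-48170594, minus strand): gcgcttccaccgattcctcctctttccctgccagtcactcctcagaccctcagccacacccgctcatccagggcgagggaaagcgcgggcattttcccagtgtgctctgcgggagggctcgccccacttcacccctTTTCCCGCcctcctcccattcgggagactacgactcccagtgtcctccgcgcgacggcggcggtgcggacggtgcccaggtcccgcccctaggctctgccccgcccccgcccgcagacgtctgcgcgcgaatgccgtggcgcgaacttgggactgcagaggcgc
MCM2 (chr3:127598161-127598460, plus strand): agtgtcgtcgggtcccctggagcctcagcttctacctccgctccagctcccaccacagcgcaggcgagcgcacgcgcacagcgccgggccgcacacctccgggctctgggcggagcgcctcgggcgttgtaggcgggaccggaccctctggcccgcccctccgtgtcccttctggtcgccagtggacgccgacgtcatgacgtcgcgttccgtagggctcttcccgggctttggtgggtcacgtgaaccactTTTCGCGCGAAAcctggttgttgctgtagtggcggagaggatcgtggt
MCM6 (chr2:135876394-135876693, minus strand): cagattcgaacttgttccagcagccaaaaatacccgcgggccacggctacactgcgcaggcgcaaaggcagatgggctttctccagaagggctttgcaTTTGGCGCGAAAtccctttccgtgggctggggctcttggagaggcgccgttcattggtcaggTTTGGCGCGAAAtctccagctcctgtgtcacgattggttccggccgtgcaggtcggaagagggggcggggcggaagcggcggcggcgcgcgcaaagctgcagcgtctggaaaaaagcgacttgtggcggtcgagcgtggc
In POLA1 the match is GCGCCAAA, on the opposite strand, from -137 to -130 relative to the start site. In POLA2 it is TTTCGCGC from -53 to -46, and in LIG1 TTTCCCGC from -114 to -107. In MCM2 the matches on each strand overlap from 3 to 14 after the start site. MCM6 has 4 matches, as a pair of such overlaps from -152 to -141 and from -90 to -79.

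Of 34 further replication genes, 3 were lower and 0 higher (8.82%, against 6.95% of all genes called in either direction). At an unadjusted p under 0.05 by edgeR, 7 were lower and 2 higher, against 14.4% and 12.9% of all genes. DESeq2 and limma voom called 0 of them higher, and edgeR without SG1 2. Without both libraries numbered 1, edgeR called 4 higher, against 13.5% of all genes. With the replicate block, 7 were lower and 2 higher, the 2 being TOPBP1 (adjusted p = 0.0265) and RBBP4 (0.0303), against 13.2% and 11.1% of all genes. CHTF8, of the alternative clamp loader that acts in cohesion, averaged 48.8 ± 11.1 CPM in SG and 92.3 ± 13.9 CPM in CM (SD, n = 3 each; log2 fold change -0.92, adjusted p = 0.0265). RNASEH2A, the catalytic subunit of the enzyme that removes RNA from DNA, averaged 51.2 ± 5.13 CPM in SG and 70.5 ± 6.06 CPM in CM (log2 fold change -0.46, adjusted p = 0.0251). RTEL1, a helicase of forks and telomeres, fell by 0.79 on the log2 scale (adjusted p = 0.0250), with 4522 exonic bases shared with its readthrough transcript. RNASEH2A likewise shares 1123 with THSD8 on the same strand and CHTF8 365 with HAS3 on the opposite strand. Of 13 genes that turn over licensing factors, 1 was lower and 1 higher by edgeR, against 4.22% and 2.73% of all genes. DTL, which directs the destruction of CDT1 on PCNA, rose, with 124 ± 5.60 CPM in SG and 98.7 ± 9.88 CPM in CM (log2 fold change 0.33, SE 0.078, adjusted p = 0.0392). FZR1, the G1 activator of the anaphase-promoting complex, fell by 0.37 on the log2 scale (adjusted p = 0.0314). With the replicate block, 3 of the 13 were lower and 2 higher, against 13.2% and 11.1% of all genes.

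Of 25 tested genes of the E2F, RB and S-phase kinase circuit, 2 were higher and 1 lower, against 2.73% and 4.22% of all genes. With the replicate block 4 were higher and 6 lower, against 11.1% and 13.2% of all genes. TFDP2, a dimer partner of E2F factors, rose, with 93.1 ± 4.10 CPM in SG and 74.0 ± 1.69 CPM in CM (SD, n = 3 each; log2 fold change 0.33, adjusted p = 0.0236). CDKN1A, an inhibitor of CDK2 that also binds PCNA, rose by 0.50 on the log2 scale (adjusted p = 0.0246), and CCND1, the cyclin D1 gene, had a log2 fold change of -0.28 (adjusted p = 0.0483). Of 14 deoxynucleotide supply genes, 5 were lower and 0 higher (35.7%, against 4.22% of all genes called lower), with a median log2 fold change of -0.15. At an unadjusted p under 0.05 by edgeR, 6 were lower and 1 higher, against 14.4% and 12.9% of all genes. DESeq2 and limma voom called 0 of the 14 higher. With the replicate block, 7 were lower and 2 higher, against 13.2% and 11.1% of all genes, the 2 being RRM2B (adjusted p = 0.0176) and SAMHD1 (0.00378). The 3 with the smallest p were RRM2, TK1 and TYMS, with log2 fold changes of -0.74, -0.60 and -0.35. RRM2 shares 1077 exonic bases with another protein-coding gene on the same strand, and TYMS 967 with ENOSF1 on the opposite strand. GENCODE also names 3 pseudogenes after RRM2 and 2 after TYMS. Of 26 mitotic genes, 0 were called by edgeR in either direction, against 6.95% of all genes. At an unadjusted p under 0.05, 3 were lower and 1 higher, against 14.4% and 12.9% of all genes. DESeq2 called 1 of them lower and limma voom 0, where they called 1238 and 859 of all 12548 genes in either direction. With the replicate block, edgeR called 11 lower (42.3%) and 2 higher, against 13.2% and 11.1% of all genes.

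The calls of the 6 genes depended on libraries 2 and 3 of both media. Without SG2, SG3, CM2 or CM3, edgeR called 0 genes of the whole table each time, with 11, 12, 11 and 12 of the 56 at an unadjusted p under 0.05 against 22.5, 20.7, 17.1 and 19.7% of all genes, and the adjusted p of the 6 lay between 0.0629 and 0.190. Without SG1, 8 of the 56 were lower, all 6 among them, against 7.74% of all genes. Without CM1, 6 were lower, 5 of the 6 among them, against 6.23% of all genes. On log2(TPM + 1), limma called only CDC45 and POLD2 of the 56, against 0.646% of all genes called lower, with an adjusted p of 0.0934 for POLA1, 0.18 for POLA2, 0.0537 for RFC5 and 0.0556 for LIG1. All 6 kept a negative sign in the 16 alternatives run, among which the log2 fold change of CDC45 ranged from -0.71 to -0.52 and that of POLD2 from -0.63 to -0.47. With the replicate number as a block, 10 of the 56 were lower and 2 higher, against 13.2% and 11.1% of all genes tested. Those added were PRIM1, POLE2, TIMELESS and WDHD1 as lower and MCM5 and DNA2 as higher. Without both libraries numbered 1, 12 of the 56 were lower and 8 higher, against 15.5% and 13.5% of all genes tested. The 8 higher were MCM5, CDT1, POLE, PCNA, RFC4, DNA2, ASF1B and E2F1.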

How the data were processed

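RNA of C666-1 cells was sequenced in 6 libraries, 3 per medium, grouped and numbered by the sample titles. The genome build GRCh38 and the tools RSEM 1.3.1 and Bowtie2 2.3.4.3 are named in the submitters' processing notes. Annotation and strand setting are not given in the sources used here. For each gene the authors deposited expected counts (estimated read counts, 15.2 to 16.0% of them not whole), FPKM values (per length and depth) and TPM values (per length, to a common total). Reads of similar genes may be split between them: 7 of the 56 genes have a pseudogene named after them in GENCODE (POLD2 and RFC5 among them), and 24 share exonic bases with another gene.

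Rounded expected counts entered edgeR 4.0.16 under R 4.3.3 (filterByExpr, minimum count 10, minimum total 15; TMM; robust quasi-likelihood fit with medium as the term), giving a two-sided test of 12548 genes with Benjamini-Hochberg adjustment and a call at 0.05. The procedure was tested on simulated data. CPM use TMM-scaled library sizes. SE is the absolute log2 fold change over the square root of F, and the 95% interval uses the t distribution with the fit's degrees of freedom. Alternatives used limma 3.58.1 and DESeq2 1.42.0. Deviations of same-numbered libraries from their group means correlated at 0.326, 0.141 and 0.190 across genes. All were above 0.1, the minimum set for pairing libraries by number. Libraries of unlike number gave -0.282 to 0.163, and SG2 with CM3 was also above 0.1. The pairing comes from the numbers in the titles, and the labels do not say what same-numbered libraries share. The replicate number therefore entered as a block in an alternative only, and the main fit ignored it. Over all genes, 3044 were called with the block and 872 in the main fit, so not called in the main fit may hold for that fit alone. Values with the replicate block are given where they change a member's call or move a list's count by over 1.5 times.

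The 56 genes and the related lists were chosen with earlier results of these data known. Named genes were all members called, the smallest p of each role, then the smallest p up to 26, and the 3 nearest 0 of at least 5 CPM in both media. MCM2, CDC6, PCNA, FEN1, TIPIN and some others were named beyond that rule, after their values were seen. The related lists name called genes, at most 3 by smallest p.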

Additional observations from a re-analysis of the deposited data

How the results depend on the processing

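All 6 called members kept their sign under every alternative run. The members called lower numbered 2 by limma on log2(TPM + 1), 2 on log2(TPM + 0.1), 10 with the replicate block, 12 without both libraries numbered 1, and 0 to 8 when 1 library was left out. Those called higher numbered 2 with the block, 8 without both libraries numbered 1, and 0 when 1 library was left out. Over all genes tested, the counts lower and higher were 234 and 106 by limma on log2(FPKM + 1), 81 and 36 on log2(TPM + 1), and 103 and 47 on log2(TPM + 0.1). They were 1657 and 1387 with the block and 1947 and 1696 without both libraries numbered 1, and with 1 library left out they ranged from 0 to 979 lower and from 0 to 758 higher. The median log2 fold change of the 56 genes ranged from -0.017 to 0.025 over all alternatives. The cause of these shifts was not tested.

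Among the 29 members named by rule, signs changed for 5, none of them called under any alternative run. By library totals, log2(FPKM + 1), log2(TPM + 1) and log2(TPM + 0.1), POLD1 was at 0.022, 0.023, 0.048 and 0.049, MCM6 at 0.023, 0.023, 0.049 and 0.049, and DBF4 at 0.019, 0.014, 0.039 and 0.041. CDC7 was at 0.022 and 0.023 on the TPM scales and MCM8 at -0.014 on log2(FPKM + 1). POLD1 was at 0.00044 with no filter on low counts. Without both libraries numbered 1, POLD1 was at 0.10 and DBF4 at 0.042. With 1 library left out, the log2 fold change ran from -0.063 to 0.064 for POLD1, -0.063 to 0.041 for MCM6, -0.088 to 0.10 for DBF4 and -0.068 to 0.0018 for CDC7. The block changed the call of PRIM1, POLE2, TIMELESS, WDHD1, MCM5 and DNA2 and of no other member. Member counts per library ran from 144 (POLE2) to 9959 (MCM7), and the largest SE among the members was 0.143 (TIPIN).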
